A study of Homo sapiens with 10 samples.

Results

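ADAM, ADAMTS and ADAMTSL genes encode a family of metalloproteases and protease-like matrix proteins. Members were taken by gene symbol: every symbol of the form ADAM, ADAMTS or ADAMTSL followed by a number, with at least 1 protein-coding transcript in the quantification. This gave 44 of 60168 genes, of which 20 are ADAM, 19 ADAMTS and 5 ADAMTSL genes. ADAM5 and ADAM6 matched the symbol but had no protein-coding transcript and were left out.

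Polyadenylated RNA came from MCF10A, an immortalised breast epithelial line that forms no tumours, after transduction and antibiotic selection. MCF10A-YAP5SA cells carried a YAP without its inhibitory serines, a constitutively active form (2 samples, A and B; the labels write YAP, and the series title activated-YAP). MCF10A-TRAM2 cells overexpressed TRAM2, a membrane protein of the translocon in the endoplasmic reticulum (4 samples, A to D). MCF10A-Control cells carried an empty vector (4 libraries, A to D). YAP5SA was delivered in a lentiviral backbone with blasticidin resistance and TRAM2 in one with puromycin resistance, and which backbone the empty vector had is not stated. All cells grew with EGF, insulin, hydrocortisone and horse serum. Control libraries A and C, and B and D, differed by no more than about sampling noise over genes whose counts were whole in all libraries, though by more over all genes (chi-square per degree of freedom 1.229 and 1.222), and were each counted as 1 sample, so that n = 2, 4 and 2. The submitters' design text speaks of 3 biological replicates per condition, which does not match the libraries, and the p-values measure only the spread between these samples, which may be technical.

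ADAM proteins are anchored in the cell membrane, where the catalytically active ones cut the ectodomains off growth factors, receptors and adhesion molecules, a step called shedding. ADAMTS proteases are secreted and bind the matrix through thrombospondin repeats; they cut proteoglycans such as versican and aggrecan, or trim procollagens. ADAMTSL proteins share the ADAMTS ancillary domains but have no protease domain, and several bind fibrillin microfibrils. Their genes are known for roles in EGF receptor and Notch signalling, in matrix turnover and in tumour cell invasion.

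The 8 samples held 12477031 to 21542413 estimated counts. TRAM2 itself was at 250 to 611 CPM (counts scaled to normalised library size) in MCF10A-TRAM2 against 28.4 to 28.9 CPM in MCF10A-Control, and at 242 to 247 CPM in MCF10A-YAP5SA. YAP1 was at 337 to 342 CPM in MCF10A-YAP5SA, at 181 to 196 CPM in MCF10A-TRAM2 and at 187 CPM in both control samples. All 8 basal mammary epithelial markers checked were detected, with a summed level of 1934 to 1970 CPM in MCF10A-YAP5SA, 2871 to 3346 CPM in MCF10A-TRAM2 and 3116 to 3137 CPM in MCF10A-Control. In MCF10A-YAP5SA 5 of the 8 were lower than in MCF10A-Control, among them CDH1, EPCAM and TP63, and 1 (KRT17) was higher. TP63 passed the filter on low counts described below only through MCF10A-TRAM2 and MCF10A-Control, so it had to be lower. Of 5 fibroblast markers 4 stayed below 1 CPM in every sample, and the summed level was 1.55 to 1.68 CPM in MCF10A-YAP5SA, 2.91 to 3.73 CPM in MCF10A-TRAM2 and 3.25 to 4.2 CPM in MCF10A-Control. Among 4 luminal markers PGR was at 0 and GATA3 made up most of a summed 79.2 to 85.2 CPM in MCF10A-YAP5SA, 26.0 to 29.1 CPM in MCF10A-TRAM2 and 25.1 to 25.4 CPM in MCF10A-Control. ESR1 went the other way, at 2.19 to 3.25 CPM in MCF10A-YAP5SA against 5.49 to 5.55 CPM in MCF10A-Control, and was called lower. VWF and CD3E were at 0 in all samples. The summed endothelial markers were at 0.155 to 0.336 CPM in MCF10A-YAP5SA, 9.16 to 13.95 CPM in MCF10A-TRAM2 and 7.69 to 7.76 CPM in MCF10A-Control, and the summed leukocyte markers at 0.252 to 0.310, 1.80 to 2.66 and 2.01 to 2.37 CPM in the same order. PECAM1 and CD14 held most of these sums in MCF10A-TRAM2 and MCF10A-Control. The part of this epithelial shift in the changes of the family was not tested. In bulk RNA, fewer cells of a type and less RNA per cell cannot be told apart.

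Which members do these cells express? Per transcript length, in TPM (a length-corrected share of the transcripts of a library), ADAM9 was the highest member in every group, at 403 and 422 TPM in MCF10A-YAP5SA, 135 to 175 TPM in MCF10A-TRAM2 and 153 and 158 TPM in MCF10A-Control. ADAM9 encodes a broadly expressed membrane protease. In MCF10A-Control it was followed by ADAM15 at 86.1 ± 7.4 TPM, ADAM10 at 54.6 ± 1.7 TPM and ADAM17 at 16.5 ± 1.9 TPM (SD, n = 2 each), and these neighbours did not overlap. ADAM19 at 5.57 TPM and ADAM12 at 4.40 TPM came next. From ADAMTSL4 at 2.32 TPM downwards, ADAM32, ADAMTS6, ADAMTSL5 and ADAMTS7 lay within 1.82 to 2.16 TPM as means, and each overlapped its neighbour. MCF10A-TRAM2 had the same first 4 members, whereas the ranges of ADAM19 and ADAM12 overlapped there.

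The order was different in MCF10A-YAP5SA. ADAM10 stood second at 116 ± 1.0 TPM, above ADAM15 at 49.3 ± 8.5 TPM, and ADAMTS12 took the fourth place at 21.7 ± 0.5 TPM, above ADAM17 at 12.3 ± 1.7 TPM (SD, n = 2 each). ADAMTS12 ranked 16 of the 19 members in MCF10A-Control. ADAMTS6, ADAMTSL5 and ADAMTS1 lay between 8.03 and 8.22 TPM as means and did not differ beyond their ranges. Summed over each subfamily, the mean level was 596 TPM for ADAM, 41.7 TPM for ADAMTS and 15.9 TPM for ADAMTSL in MCF10A-YAP5SA. The same sums were 340, 6.45 and 7.11 TPM in MCF10A-TRAM2, and 326, 5.48 and 4.67 TPM in MCF10A-Control. These levels lean on short transcripts: ADAM9-205, a retained-intron transcript of 516 bases, held 45.5% to 54.1% of the ADAM9 TPM over all samples but 6.85% to 10.7% of its counts. ADAMTSL5 showed the limit of TPM here, at 4.01 and 12.2 TPM in the 2 MCF10A-YAP5SA samples from 150 and 178 counts.

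**Figure D1:**
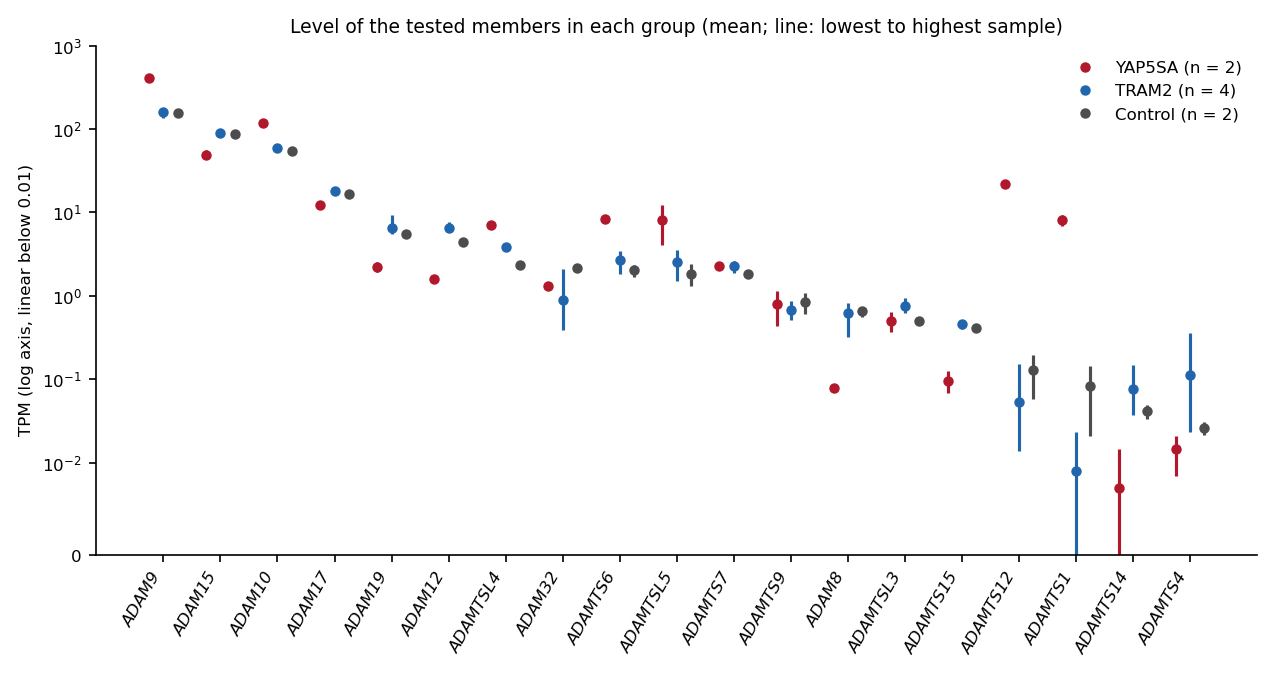
TPM of the 19 tested members (log axis, linear below 0.01), ordered by their level in MCF10A-Control, with points for the group means and lines from the lowest to the highest sample in MCF10A-YAP5SA (n = 2), MCF10A-TRAM2 (n = 4) and MCF10A-Control (n = 2). ADAM9 leads in every group, and ADAMTS12 is at 21.7 TPM in MCF10A-YAP5SA against 0.13 TPM in MCF10A-Control.

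Of the 44 members 19 passed the filter on low counts and were tested (8 ADAM, 8 ADAMTS and 3 ADAMTSL), and 25 did not pass. Calls required an adjusted p under 0.05 from edgeR's quasi-likelihood test together with a log2 fold change beyond 0.5 in either direction.

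In MCF10A-YAP5SA against MCF10A-Control 7 of the 19 members were higher and 5 lower, while among all 15768 genes tested 15.3% were called higher and 14.1% lower. Of 8 ADAM genes 2 were higher, 4 lower and 2 not called, of 8 ADAMTS genes 3 were higher, 1 lower and 4 not called, and of 3 ADAMTSL genes 2 were higher and none lower. The median size of the log2 fold change, without its sign, was 1.38 over the 19 members and 0.353 over all genes tested. ADAMTS1 and ADAMTS12 passed the filter only through their counts in MCF10A-YAP5SA, ADAMTS14 and ADAMTS4 only through MCF10A-TRAM2, and ADAM8 through MCF10A-TRAM2 and MCF10A-Control, so that these summaries describe the members tested and not the whole family. Once through the filter, ADAMTS1 and ADAMTS12 had to be higher in MCF10A-YAP5SA than in control, and ADAM8 lower. Their places among the 7 higher and 5 lower therefore support nothing.

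The active members carry a zinc site, where 3 histidines hold the catalytic zinc ion and a glutamate next to the first acts in catalysis. It was searched for as codons in the longest annotated coding sequence of each gene, in frame on the coding strand (GENCODE on GRCh37). With the glycine of the usual site, 12 of 20 ADAM, 14 of 19 ADAMTS and 0 of 5 ADAMTSL genes held it, against 59 of 19554 coding genes (0.302%). When asparagine was allowed in place of that glycine, a pattern chosen after the first result, 18 of 19 ADAMTS genes held it and the count of ADAM genes stayed at 12. Both ADAMTSL genes called in MCF10A-YAP5SA were thus without it, as was ADAM32 among the tested ADAM genes. Among the members called in MCF10A-YAP5SA against control, 8 held the site in its glycine form, 4 of them higher (ADAM9, ADAM10, ADAMTS12 and ADAMTS6) and 4 lower (ADAM12, ADAM15, ADAM19 and ADAM8). The coding sequences below are shown because they share the site across both directions; that of ADAM9 is not shown here. They run 5′ to 3′ on the coding strand, and the capitals mark the codons of the site. The sites of ADAM12 (chr10:127782628-127782660, minus strand), ADAM8 (chr10:135085384-135085416, minus strand), ADAM15 (chr1:155029471-155029503, plus strand) and ADAM19 (chr5:156932742-156932774, minus strand) each lie within 1 exon, and those of ADAM10, ADAMTS12 and ADAMTS6 cross an exon junction.
ADAM10: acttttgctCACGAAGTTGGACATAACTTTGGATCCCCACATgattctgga
ADAMTS12: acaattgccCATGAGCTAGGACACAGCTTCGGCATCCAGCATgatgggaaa
ADAMTS6: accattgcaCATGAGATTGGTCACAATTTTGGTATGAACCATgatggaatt
ADAM12: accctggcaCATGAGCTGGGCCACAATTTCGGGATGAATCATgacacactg
ADAM15: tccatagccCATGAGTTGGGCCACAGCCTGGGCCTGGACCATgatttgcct
ADAM19: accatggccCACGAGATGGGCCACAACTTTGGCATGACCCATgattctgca
ADAM8: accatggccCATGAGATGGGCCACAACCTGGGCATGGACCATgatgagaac

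Membrane-bound ADAM genes split into 2 that rose and 4 that fell in MCF10A-YAP5SA. ADAM9 was at 1311 and 1339 CPM in MCF10A-YAP5SA, at 529 to 546 CPM in MCF10A-TRAM2 and at 498 and 519 CPM in MCF10A-Control. No MCF10A-YAP5SA value came near those of the other groups, and the log2 fold change against control was 1.38 ± 0.05 (SE; adjusted p = 1.87e-11). ADAM10, the main sheddase of Notch receptors and cadherins, was at 216 and 214 CPM in MCF10A-YAP5SA, at 110, 115, 115 and 113 CPM in MCF10A-TRAM2 and at 105 CPM in both MCF10A-Control samples. Its log2 fold change was 1.03 ± 0.05 (SE; adjusted p = 3.83e-10), with no overlap.

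ADAM15, whose disintegrin domain binds integrins, was at 82.3 and 87.6 CPM in MCF10A-YAP5SA, at 145, 140, 149 and 155 CPM in MCF10A-TRAM2 and at 147 and 144 CPM in MCF10A-Control. It was lower in MCF10A-YAP5SA by a log2 fold change of -0.78 ± 0.06 (SE; adjusted p = 7.51e-08). The meltrins ADAM12 and ADAM19 fell as well. ADAM12, a sheddase of HB-EGF that also cuts IGF-binding proteins, was at 8.75 and 8.67 CPM in MCF10A-YAP5SA, at 40.4, 38.0, 36.0 and 36.5 CPM in MCF10A-TRAM2 and at 25.03 and 23.2 CPM in MCF10A-Control. The 3 groups did not overlap, and the log2 fold change in MCF10A-YAP5SA against control was -1.47 ± 0.10 (SE; adjusted p = 2.89e-08).

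ADAM19, a protease linked to the shedding of neuregulin, was at 17.8 and 17.0 CPM in MCF10A-YAP5SA, at 49.4, 76.3, 49.2 and 47.5 CPM in MCF10A-TRAM2 and at 44.7 and 42.7 CPM in MCF10A-Control. MCF10A-TRAM2 B stood above all other samples, and the log2 fold change of MCF10A-YAP5SA against control was -1.33 ± 0.29 (SE; adjusted p = 0.00976; 0.0566 without MCF10A-YAP5SA B). ADAM8, known from leukocytes and from invasive breast tumours, was low in every sample, at 0.505 and 0.465 CPM (6 counts each) in MCF10A-YAP5SA, at 1.86, 3.66, 2.79 and 2.46 CPM in MCF10A-TRAM2 and at 2.43 and 3.29 CPM in MCF10A-Control. Its log2 fold change was -2.54 ± 0.41 (SE; adjusted p = 1.37e-04), from 12 counts in MCF10A-YAP5SA against 114 in MCF10A-Control.

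ADAM17, the converting enzyme of TNF and of several EGF receptor ligands, was at 47.2 and 46.5 CPM in MCF10A-YAP5SA, at 66.2, 70.6, 64.7 and 65.3 CPM in MCF10A-TRAM2 and at 57.9 and 55.4 CPM in MCF10A-Control. Against control it did not reach the fold threshold (log2 fold change -0.28, 95% interval -0.40 to -0.15, adjusted p = 0.00302). ADAM32, a member known from testis, was between 1.52 and 2.61 CPM over all samples, with a log2 fold change of 0.09 (95% interval -0.54 to 0.71).

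Among the secreted ADAMTS proteases the largest differences of the family were seen. ADAMTS12, which cuts cartilage oligomeric matrix protein and carries a mucin-like domain, was at 183 and 190 CPM in MCF10A-YAP5SA, at 0.298, 0.276, 0.182 and 0.253 CPM in MCF10A-TRAM2 and at 0.412 and 0.377 CPM in MCF10A-Control. It was close to absent outside MCF10A-YAP5SA. Its 4629 counts in MCF10A-YAP5SA against 16 in MCF10A-Control gave a ratio of 471 after library size (95% counting interval 290 to 825, edgeR adjusted p = 2.55e-15). ADAMTS1, a versican- and aggrecan-cutting protease, was at 16.7 and 15.1 CPM (198 and 195 counts) in MCF10A-YAP5SA, with 5 counts over MCF10A-TRAM2 and 3 counts over MCF10A-Control. The ratio to control was 213 (95% counting interval 72.5 to 1040; adjusted p = 1.94e-09). Counting intervals cover counting error only. Both genes passed the filter only through MCF10A-YAP5SA, so their edgeR p-values support nothing beyond these counts.

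ADAMTS6, a relative of ADAMTS10 that acts on fibrillin microfibrils, was at 41.0 and 44.1 CPM in MCF10A-YAP5SA, at 12.4, 18.4, 10.6 and 11.1 CPM in MCF10A-TRAM2 and at 9.43 and 10.8 CPM in MCF10A-Control. It rose in MCF10A-YAP5SA by 2.08 ± 0.23 (log2 fold change, SE; adjusted p = 1.10e-04). ADAMTS15, another versican-cutting protease, was the one ADAMTS gene that fell. It was at 0.841 and 1.55 CPM in MCF10A-YAP5SA, at 6.11, 6.08, 4.91 and 4.86 CPM in MCF10A-TRAM2 and at 5.26 and 4.58 CPM in MCF10A-Control (log2 fold change -2.02 ± 0.28, SE; adjusted p = 2.91e-05).

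ADAMTS14, a procollagen N-proteinase, had 2 and 0 counts in MCF10A-YAP5SA, 9, 24, 7 and 10 counts in MCF10A-TRAM2 and 12 and 7 counts in MCF10A-Control. MCF10A-TRAM2 B again held the most. The ratio of MCF10A-YAP5SA to control was 0.171 (95% counting interval 0.0194 to 0.711) and was not called (adjusted p = 0.0776; 0.0324 with no filter on low counts and 0.0358 without MCF10A-TRAM2 B). ADAMTS7, the closest relative of ADAMTS12, was between 15.2 and 22.8 CPM over all samples, and its log2 fold change of 0.41 missed the fold threshold (95% interval 0.13 to 0.70, adjusted p = 0.0334). ADAMTS9 was between 5.97 and 10.6 CPM over all samples (log2 fold change -0.46, 95% interval -0.84 to -0.09, adjusted p = 0.0583), and ADAMTS4, an aggrecanase, between 0.168 and 0.828 CPM (log2 fold change -0.80, 95% interval -1.97 to 0.36).

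Of the ADAMTSL genes, ADAMTSL4 and ADAMTSL5, both binders of fibrillin, rose in MCF10A-YAP5SA. ADAMTSL4 was at 51.8 and 51.6 CPM in MCF10A-YAP5SA, at 21.3, 23.8, 23.3 and 23.2 CPM in MCF10A-TRAM2 and at 14.5 and 15.6 CPM in MCF10A-Control, 3 groups without overlap. Its log2 fold change against control was 1.78 ± 0.08 (SE; adjusted p = 2.87e-10). ADAMTSL5 was at 12.6 and 13.8 CPM in MCF10A-YAP5SA, at 4.40, 5.18, 4.30 and 4.04 CPM in MCF10A-TRAM2 and at 2.79 and 3.50 CPM in MCF10A-Control (log2 fold change 2.07 ± 0.17, SE; adjusted p = 2.04e-07). ADAMTSL3 was between 1.43 and 4.06 CPM over all samples, and MCF10A-YAP5SA overlapped control (log2 fold change 0.06, 95% interval -0.60 to 0.72).

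**Figure D2:**
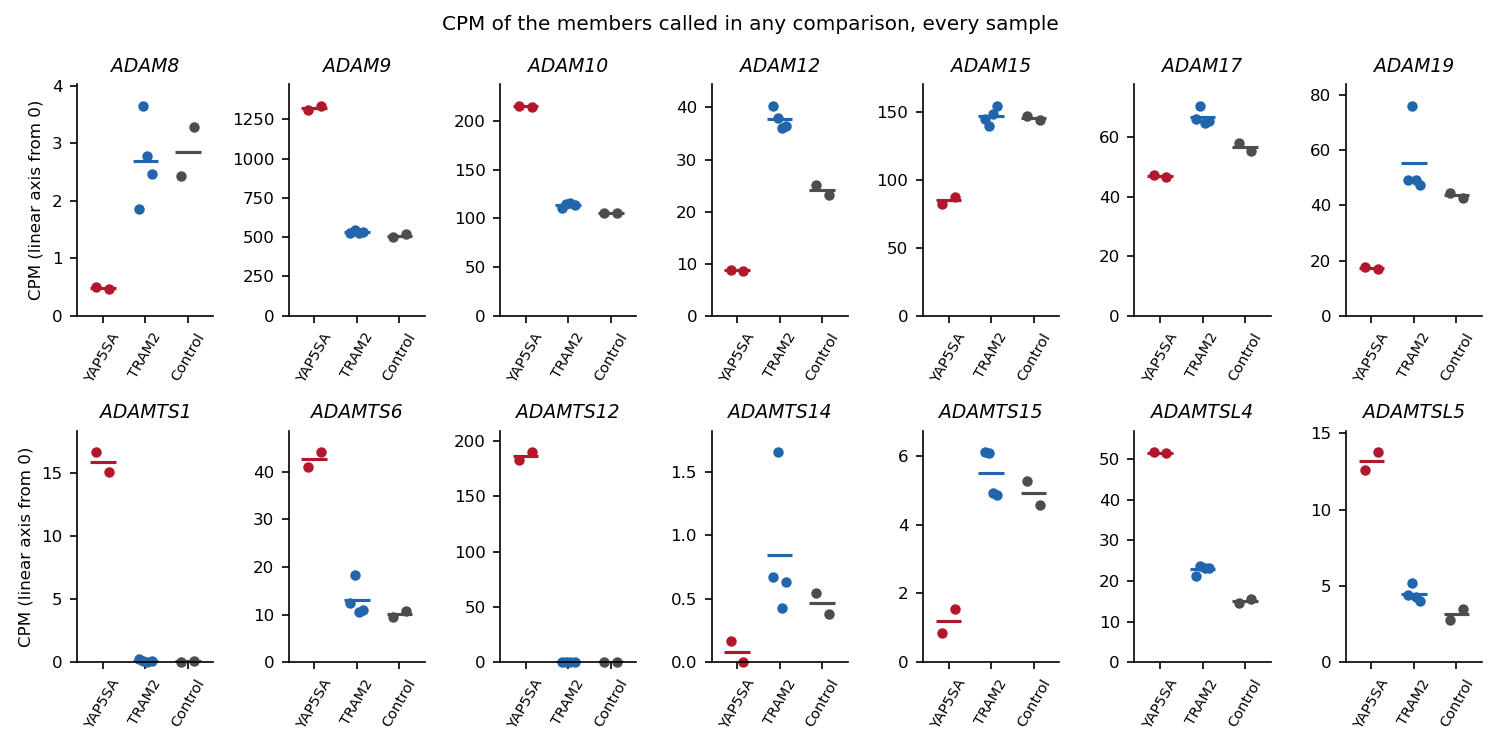
CPM (linear axes from 0) of the 14 members called in any comparison, 1 panel for each gene, with a point for every sample and a bar for the mean of MCF10A-YAP5SA (n = 2), MCF10A-TRAM2 (n = 4) and MCF10A-Control (n = 2). ADAMTS12 and ADAMTS1 are near 0 outside MCF10A-YAP5SA, and ADAM12 is lowest in MCF10A-YAP5SA and highest in MCF10A-TRAM2.

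Does TRAM2 alone move these genes? In MCF10A-TRAM2 against MCF10A-Control 2 of the 19 members were higher, ADAM12 and ADAMTSL4, and none was lower, while 0.0317% of all genes tested were called higher and 0.0254% lower (5 and 4 of 15768 genes). That count of 9 genes was unstable: it was 39 without MCF10A-TRAM2 B, 3 without the sample of control B and D, 28 with DESeq2, 67 with all 10 libraries separate and 97 in the second run alone. The log2 fold change of ADAM12 was 0.64 ± 0.07 (SE; adjusted p = 0.00192) and that of ADAMTSL4 0.61 ± 0.08 (SE; adjusted p = 0.00429). All 4 MCF10A-TRAM2 samples lay above both control samples for each gene. At an unadjusted p under 0.05 there were 7 members, all higher, and 1994 of the 15768 genes, 941 of them higher. The other 5 were ADAM10, ADAM17, ADAMTS7, ADAMTSL3 and ADAMTSL5, with log2 fold changes of 0.11 to 0.61 and adjusted p of 0.104 to 0.381. ADAM9 and ADAM15, the highest members, had log2 fold changes of 0.07 (95% interval -0.01 to 0.15) and 0.02 (95% interval -0.08 to 0.11).

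Both calls were sensitive to leaving out a control sample, which leaves 1 in that group. Without the sample of control B and D neither gene was called, at log2 fold changes of 0.59 for ADAM12 and 0.66 for ADAMTSL4. Without the sample of control A and C only ADAM12 was called, and the log2 fold changes were 0.71 and 0.56. With all samples they were 0.64 and 0.61. With an offset for effective transcript length neither was called (adjusted p = 0.527 and 0.0863), at log2 fold changes of 0.56 and 0.72. Libraries A and B appear to come from a first sequencing run and C and D from a second, by a number in the deposited names. For ADAM12 the first run held MCF10A-TRAM2 libraries at 40.5 and 38.2 CPM against control libraries at 24.5 and 23.9 CPM. The second held MCF10A-TRAM2 libraries at 36.1 and 36.6 CPM against control libraries at 25.7 and 22.2 CPM. ADAMTSL4 was at 21.4 and 23.9 CPM against 15.1 and 13.8 CPM in the first run, and at 23.3 CPM in both MCF10A-TRAM2 libraries against 13.9 and 17.6 CPM in the second, so that both were higher within each run. Control C and D were counted in the same samples as A and B, so the second run holds no separate control samples. MCF10A-YAP5SA was sequenced in the first run only, and with libraries of that run alone 12 members were called against control.

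**Figure D3:**
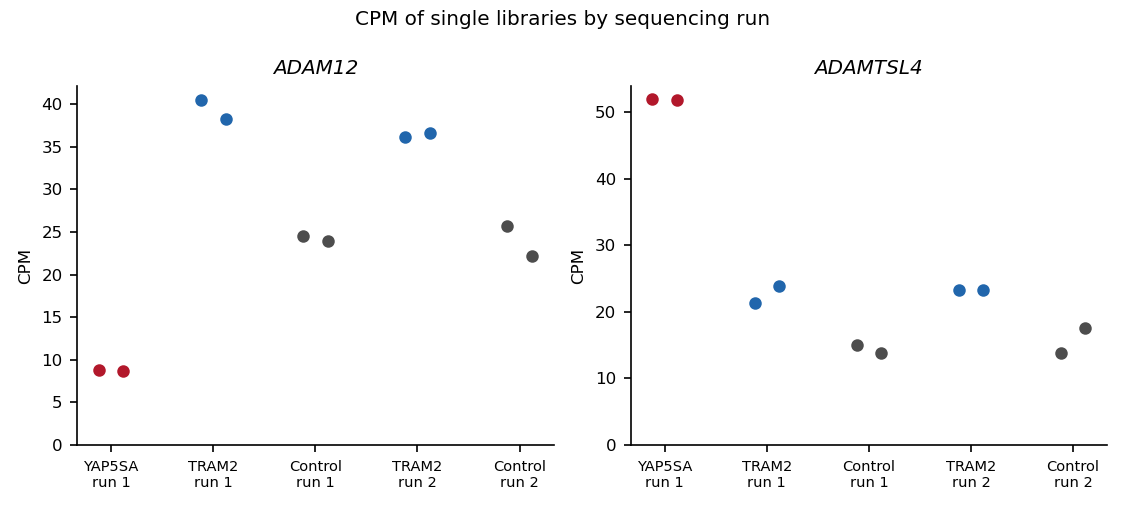
CPM (axes from 0) of ADAM12 and ADAMTSL4 in single libraries, 2 for each group and sequencing run, with MCF10A-YAP5SA in run 1 only. In each run both MCF10A-TRAM2 libraries lie above both control libraries, and MCF10A-YAP5SA lies below control for ADAM12 (8.78 and 8.72 CPM) and above MCF10A-TRAM2 for ADAMTSL4 (52.0 and 51.8 CPM). The control libraries of the second run were counted in the same samples as those of the first.

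How far do the 2 overexpressing lines differ? MCF10A-YAP5SA against MCF10A-TRAM2 gave 7 members higher and 7 lower, against 14.9% higher and 14.6% lower of all genes tested. ADAM12 stood on opposite sides of control in the 2 lines, and the direct log2 fold change was -2.11 ± 0.09 (SE; adjusted p = 1.22e-10). ADAMTSL4 was higher than control in both and higher in MCF10A-YAP5SA by 1.17 ± 0.07 (log2 fold change, SE; adjusted p = 2.56e-09). ADAMTS12 had 4629 counts in MCF10A-YAP5SA against 15 in MCF10A-TRAM2. Given how they passed the filter, ADAMTS12 and ADAMTS1 had to be higher in MCF10A-YAP5SA here as well, and ADAM8 lower.

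ADAM17 and ADAMTS14 were called only in this direct comparison among the 3. ADAM17 was lower in MCF10A-YAP5SA (log2 fold change -0.51 ± 0.06, SE; adjusted p = 4.46e-06), just past the fold threshold, and its log2 fold change was -0.48 without MCF10A-TRAM2 B, -0.50 without MCF10A-YAP5SA B and -0.49 with the length offset. ADAMTS14 had 2 counts in MCF10A-YAP5SA against 50 in MCF10A-TRAM2, a ratio of 0.0972 (95% counting interval 0.0115 to 0.37; adjusted p = 0.00950; 0.118 without MCF10A-YAP5SA B). It passed the filter through MCF10A-TRAM2 A and B alone and was not tested without MCF10A-TRAM2 C or D, so that it had to be higher there and its call among the 7 lower supports nothing. The comparisons share samples, so their values stand side by side and are not independent.

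**Figure D4:**
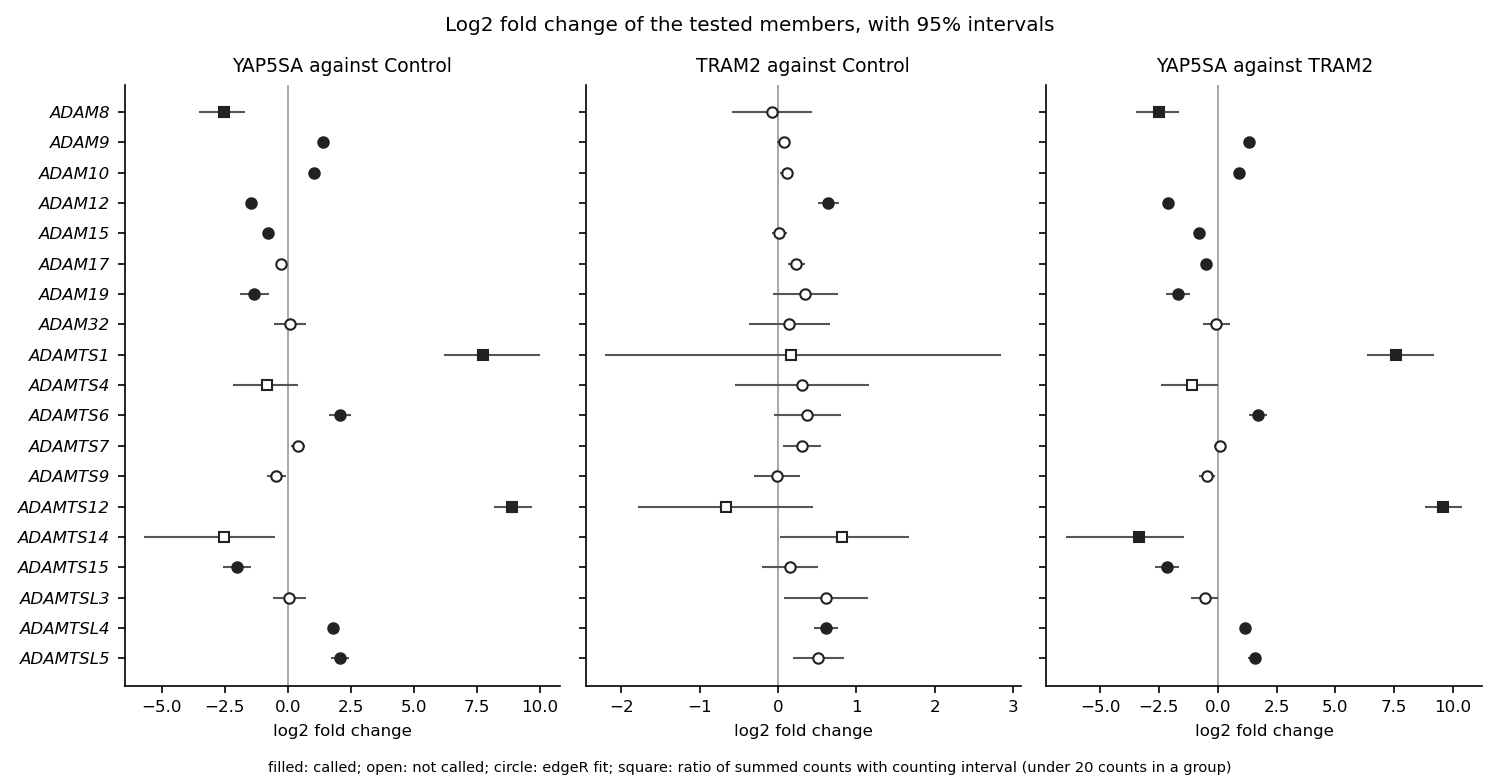
Log2 fold change with its 95% interval for the 19 tested members in MCF10A-YAP5SA against MCF10A-Control, MCF10A-TRAM2 against MCF10A-Control and MCF10A-YAP5SA against MCF10A-TRAM2 (filled: called; circles: edgeR fit; squares: ratio of summed counts with its counting interval where a group held under 20 counts). The middle panel has a narrower axis, and ADAM12 and ADAMTSL4 are its only filled points.

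The 25 members that did not pass the filter had few counts. For 10 of them (ADAM2, ADAM7, ADAM18, ADAM22, ADAM30, ADAMTS5, ADAMTS8, ADAMTS10, ADAMTS19 and ADAMTS20) none was found in any sample. ADAMTSL1, a secreted matrix protein, had 30 counts in MCF10A-YAP5SA, 1 count in MCF10A-TRAM2 and 0 counts in MCF10A-Control. The ratio to control was 16.3 when control was set to a summed floor of 3 counts. That ratio leaves out the counting error in MCF10A-YAP5SA, and the 95% counting interval from the observed counts began at 12.4. The 2 MCF10A-YAP5SA samples held 7 and 23 counts, and without MCF10A-YAP5SA B, left out after seeing the data, the ratio at the floor was 7.93. ADAMTS2, the main procollagen N-proteinase, had 13, 0 and 1 counts in the same order of groups (ratio to control 21.2, 95% counting interval 3.18 to 900; 13.6 without MCF10A-YAP5SA B). Its relative ADAMTS3 went the other way, with 2 counts in MCF10A-YAP5SA, 15 counts in MCF10A-TRAM2 and 19 counts in MCF10A-Control (ratio to control 0.171, 95% counting interval 0.0194 to 0.711).

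The rest of these low members stayed at or below 22 counts in any group. In MCF10A-YAP5SA, MCF10A-TRAM2 and MCF10A-Control, ADAM21 had 8, 22 and 12 counts, ADAMTS13 5, 13 and 6, and ADAMTS17 5, 11 and 2. ADAM20 had 4, 4 and 0 counts, ADAM28 0, 4 and 1, ADAMTSL2 0, 4 and 4, ADAM23 3, 0 and 0, and ADAM11 2, 0 and 1. ADAM29 (0, 1 and 1), ADAM33 (0, 1 and 0), ADAMTS16 (1, 0 and 0) and ADAMTS18 (1, 0 and 0) had at most 1 count in a group. For ADAM20 the ratio of MCF10A-YAP5SA to control was 2.17 at the same floor, from 4 counts, and the counting interval from the observed counts began at 1.08. For the other low members in this paragraph the counting intervals of the ratios to control included 1.

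Which transcripts carried the changes? Shares of a gene's counts are used here, since short transcripts take much of the TPM. ADAM12-202, the transcript of 7938 bases, held 67.9% to 73.1% of ADAM12 counts in MCF10A-YAP5SA, 73.9% to 79.6% in MCF10A-TRAM2 and 73.3% to 75.5% in MCF10A-Control. ADAM12-201, of 3313 bases, held 0% to 8.18%, 0.579% to 1.99% and 1.81% to 1.95% in the same order. ADAM12-203, of 1145 bases, held most of the rest, and the ranges of the MCF10A-TRAM2 and control samples overlapped for all 3 transcripts.

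For ADAMTS12 the 8572-base transcript ADAMTS12-203 held 70.2% to 71.9% of its counts in MCF10A-YAP5SA and ADAMTS12-201, of 4622 bases, 13.3% to 16.1%. ADAM9-209 held 72.9% to 77.5% of ADAM9 counts in MCF10A-YAP5SA, 75.9% to 84.3% in MCF10A-TRAM2 and 76.4% to 80.3% in MCF10A-Control. ADAM17-201 held 62.6% to 66.8%, 62.6% to 71.7% and 69.2% to 70.7% of ADAM17 counts in that order. The nonsense-mediated decay transcript ADAM19-204 held 25.1% to 42.4% of ADAM19 counts in MCF10A-YAP5SA against 20.8% to 23.2% in MCF10A-TRAM2 and 19.8% to 28.9% in MCF10A-Control. ADAMTS6-203 held 62.8% to 70.7% of ADAMTS6 counts in MCF10A-YAP5SA, 50.4% to 87.6% in MCF10A-TRAM2 and 77.6% to 79.2% in MCF10A-Control, and ADAMTSL5-201 held 73.9% to 74.3%, 57.0% to 76.0% and 48.0% to 89.2% of ADAMTSL5 counts. ADAMTS15 had 1 transcript with counts, ADAMTS15-201. For ADAMTSL4 the transcripts ADAMTSL4-201 and ADAMTSL4-202 exchanged shares between replicates, at 0% to 74.3% and 0% to 66.7% within MCF10A-YAP5SA alone, so the estimates did not separate them.

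Near-identical or antisense neighbours were low. ADAMTSL4-AS1, which lies antisense to ADAMTSL4, had 13 counts in MCF10A-YAP5SA, 55 counts in MCF10A-TRAM2 and 11 counts in MCF10A-Control, against 1282, 1383 and 606 counts of ADAMTSL4, and with no strand setting stated for the quantification, reads of the pair may not have been told apart. The pseudogenes ADAMTS7P1, ADAMTS7P3 and ADAMTS7P4 had at most 37 counts in any group against 511 or more for ADAMTS7.

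YAP has no DNA-binding domain and acts mostly through TEAD factors, often together with AP-1. Promoters from RefSeq (GRCh38.p14, 250 bases before to 50 after the start) were at hand for 29 of the 44 members and were searched on both strands for GGAATG, the core of the TEAD motif, and for TGACTCA, the AP-1 motif. The TEAD core was in 5 of the 29 (17.2%) and in 4928 of all 35116 promoters (14%). Of the members higher in MCF10A-YAP5SA than in control, 5 had a promoter and 2 of these held it, ADAMTS12 and ADAMTS6; of those lower, 4 had a promoter and 0 held it. The other 3 with the core were ADAM17, which was lower in MCF10A-YAP5SA but short of the fold threshold against control and called lower against MCF10A-TRAM2, ADAMTS13, with few counts, and ADAMTS20, with none. The AP-1 motif was in 0 of 29 and in 4.95% of all promoters. A match is only a match of letters. The windows around it are shown for the 2 genes that rose, in capitals the TEAD core or its reverse complement, which begins 119 bases before the ADAMTS12 start (chr5:33892064-33892149, minus strand) and 200 bases before the ADAMTS6 start (chr5:65482075-65482160, minus strand).
ADAMTS12: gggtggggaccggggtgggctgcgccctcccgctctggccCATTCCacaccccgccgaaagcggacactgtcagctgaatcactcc
ADAMTS6: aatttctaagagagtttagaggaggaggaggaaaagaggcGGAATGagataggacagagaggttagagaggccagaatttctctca

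Genes that act with the family changed in both directions in MCF10A-YAP5SA, and the counts below stand beside 15.3% higher and 14.1% lower among all genes tested. Of 13 activators and trafficking factors tested, 3 were higher and 3 lower than in MCF10A-Control. PCSK5, a proprotein convertase, was at 0.336 to 0.697 CPM in MCF10A-YAP5SA against 11.3 to 11.4 CPM in MCF10A-Control (log2 fold change -4.42 ± 0.25, SE), and FURIN, the convertase that removes ADAM prodomains, fell by 0.79 on the log2 scale. TSPAN14, a tetraspanin partner of ADAM10, rose by 0.75, and FRMD8, a partner of the iRhoms that carry ADAM17 to the surface, fell by 0.60 on the log2 scale. Of 6 inhibitor and clearance genes tested, 3 were higher and 2 lower. The lower ones were TIMP3 and SERPINA1, which encodes an inhibitor of serine proteases (log2 fold change -2.53). TIMP2 was at 311 to 322 CPM in MCF10A-YAP5SA against 113 to 114 CPM in MCF10A-Control (log2 fold change 1.48 ± 0.07, SE), whereas TIMP3, the TIMP that inhibits ADAM17 and the ADAMTS aggrecanases, was at 71.2 to 77.4 CPM against 121 to 126 CPM (log2 fold change -0.73 ± 0.08, SE). RECK, a membrane-anchored inhibitor, rose by 1.66, and LRP1, an endocytic receptor of ADAMTS proteases, by 3.25 on the log2 scale.

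Among 26 tested transmembrane substrates of ADAM10 and ADAM17, 11 were higher and 8 lower in MCF10A-YAP5SA. CDH2 did not pass the filter on low counts through MCF10A-Control, nor NOTCH3 (0.252 to 0.387 CPM) through MCF10A-YAP5SA. As with ADAM8, the group left out was the lower one, so their places in these counts support nothing. CDH2 (N-cadherin) was at 81.1 to 83.3 CPM in MCF10A-YAP5SA against 0.215 to 0.458 CPM in MCF10A-Control, and CDH1 (E-cadherin) at 93.2 to 102 CPM against 375 to 390 CPM. Of the growth factors, NRG1 was at 83.5 to 91.3 CPM against 7.55 to 8.24 CPM, and EREG at 1.94 to 2.44 CPM against 40.2 to 41.6 CPM. The matrix substrates of ADAMTS proteases were mostly not expressed, and of 10 listed only 2 were tested: VCAN (versican) was at 31.8 to 34.5 CPM in MCF10A-YAP5SA against 2.43 to 2.64 CPM in MCF10A-Control, and ACAN (aggrecan) at 0.420 to 0.774 CPM against 7.81 to 8.65 CPM. Of 4 tested substrates and cofactors of the procollagen N-proteinases, 1 was higher and 2 lower: CCBE1, which assists the processing of VEGFC by ADAMTS3, rose by 2.05 on the log2 scale, while COL1A1 fell by 2.09 and VEGFC by 0.52. COL1A1 was low throughout, at 0.619 to 0.925 CPM in MCF10A-YAP5SA against 2.84 to 3.77 CPM in MCF10A-Control.

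Fibrillin microfibril genes and other ADAMTSL partners counted 9 higher and 2 lower of 12 tested, with a median log2 fold change of 1.95 against -0.01 over all genes. FBLN5 (0.183 to 0.269 CPM in MCF10A-Control) and EFEMP2 (0.0915 to 0.215 CPM) passed the filter on low counts only through MCF10A-YAP5SA. Both had to be higher there, so their places among the 9 and in the median support nothing. FBLN1 was at 400 to 410 CPM in MCF10A-YAP5SA against 92.4 to 95.7 CPM in MCF10A-Control, THBS1 at 10200 to 10400 CPM against 2940 to 2980 CPM, and MFAP5 at 154 to 158 CPM against 1.78 to 2.15 CPM. LTBP3 was lower, at 12.7 to 15.1 CPM against 39.4 to 43.7 CPM. Of 4 tested genes that glycosylate thrombospondin repeats, 3 were higher and none lower: POFUT2 rose by 0.99, DPY19L3 by 0.79 and B3GLCT by 0.54 on the log2 scale. Integrins that bind ADAM disintegrin domains were 2 higher (ITGB1 by 0.91 and ITGA3 by 0.58 on the log2 scale) and 2 lower (ITGA6 by -0.53 and ITGA5 by -0.79) of 6 tested. In MCF10A-TRAM2 against MCF10A-Control no gene of these 8 lists was called by edgeR. THBS1 (log2 fold change -0.30, adjusted p = 0.0316) and LTBP2 (log2 fold change 0.36, adjusted p = 0.0324) missed only the fold threshold. Unadjusted p under 0.05 were found there for 12.6% of all genes tested, and in the lists for 3 of 13 activators, 2 of 6 inhibitors, 7 of 26 substrates, 0 of 2 proteoglycans, 1 of 4 procollagen-related genes, 6 of 12 fibrillin partners, 1 of 4 glycosylation genes and 1 of 6 integrins.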

How the data were processed

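mRNA libraries of MCF10A cells were used. The authors trimmed adapters with cutadapt and quantified transcripts with Salmon; versions, strand setting and genome build are not given in those sources, and the labels name a TruSeq RNA kit where the paper names a stranded one. The deposited values are estimated counts (expected counts, which need not be whole), TPM and transcript lengths for each transcript, without pooling. A short fragment with a small effective length can take much TPM from few reads.

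Estimated counts were summed over transcripts to 60168 genes and rounded. Control libraries were compared by chi-square over genes that averaged 50 or more counts. Over genes whose counts were within 0.001 of whole in all 10 libraries, chi-square per degree of freedom was 1.003 for A with C and 0.9993 for B with D, against 1.157 to 1.24 for the other control pairs, and each of the 2 pairs was summed. Over genes whole in the pair only, B with D exceeded sampling noise at 1.048, while the unmerged control pairs gave 1.152 to 1.209. Over all genes, where estimated counts also carry the error of assigning reads, A with C gave 1.229 and B with D 1.222, against 1.421 to 1.491 for the others.

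Genes passing edgeR's filterByExpr (15768) were TMM-normalised and tested with edgeR 4.0.16 (robust quasi-likelihood, R 4.3.3) over all 8 samples, with Benjamini-Hochberg adjustment, 3 comparisons and no covariates. CPM uses the normalised library sizes, and a control sample's TPM is the mean of its 2 libraries. SE is the log2 fold change divided by the root of F. Intervals are at 95%, and those of ratios of summed counts are exact binomial. The steps were tested on simulated counts. Called members are given in every sample, other tested members by range, untested ones by counts, and from each pathway list up to 4 called genes with the smallest adjusted p. One marker gene is not reported here. The members and lists were chosen with earlier results of these data known. The protein pattern search planned was run on coding sequences instead. The effects of 18 other settings are given at the end, among them DESeq2 1.42.0 and the second run alone, which was chosen after seeing the data.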

Additional observations from a re-analysis of the deposited data

Results flagged for a closer look

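The 4 MCF10A-TRAM2 samples of each of the 19 tested members were examined for a sample far from the other 3, and 2 of the 19 groups held one; chance alone flags about 1 in 20 groups. Both were MCF10A-TRAM2 B. ADAM19 was at 76.3 CPM there against 47.5 to 49.4 CPM in the others (gap over range 0.933). ADAM9 was at 546 CPM against 529 to 531 CPM (0.894). MCF10A-TRAM2 B was also the sample with the most TRAM2, at 611 CPM.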

How the results depend on the processing

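In MCF10A-YAP5SA against MCF10A-Control 12 members were called, and 11 to 16 under the alternatives: 12 with DESeq2, RLE size factors, separate libraries, the 2 groups alone, the first run alone or the length offset, 13 with run as a term, 16 with no filter (where ADAMTS2, ADAMTSL1, ADAMTS9 and ADAMTS14 were added), and 11 to 13 when leaving out each sample in turn. The direct comparison gave 14, and 13 to 16. In MCF10A-TRAM2 against MCF10A-Control 2 members were called; this fell to 0 with the length offset, and leaving out each sample gave 0 to 2, with 1 without the sample of control A and C and 0 without that of control B and D; the cause was not tested. The second run alone, chosen after seeing the data, gave 2, with control libraries counted in the same samples as those of the first run. No named member changed direction after being called. Same-lettered libraries did not deviate together over the genes tested (correlations of -0.03 to 0.04). These values showed no pairing by letter but could miss a weak one. With the replicate block over 10 libraries 13, 2 and 13 members were called in MCF10A-YAP5SA against MCF10A-Control, MCF10A-TRAM2 against MCF10A-Control and MCF10A-YAP5SA against MCF10A-TRAM2. Transcript shares moved from TPM to counts as described. With 2 control samples, small differences of low members were beyond reach.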
